A study of Mus musculus with 21 samples.

Results

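The genes described here are 9 mouse genes that move, store or bind metals. They are the iron exporter Slc40a1, the metal transporters Slc11a1, Slc11a2 and Slc39a14, the transferrin receptor Tfrc, the ferritin subunits Fth1 and Ftl1, and the metallothioneins Mt1 and Mt2. They were taken by name, and all 9 were found among the 23250 genes of the expression table and passed the filter on low counts that left 13468 genes for testing. The study asked what the soluble mannose receptor does to macrophages that lack the receptor. Cells were grown from mouse bone marrow (genetic background C57BL/6J) for 7 days with GM-CSF, a growth factor for myeloid cells, taken from the supernatant of a producing cell line at 2.5% of the medium. FcMR is a recombinant protein in which the Fc region of human IgG1 is joined to the receptor's extracellular region. The 7 groups, with 3 libraries each, were untreated cells (0 h), cells given an isotype control for 4, 12 or 24 h, and cells given FcMR for 4, 12 or 24 h. Untreated cells were taken at 0 h only. When isotype cells are compared with them, the control protein and the hours of culture cannot be told apart. The cells of all 7 groups are described as deficient in the mannose receptor (MR), the controls included, and there were no cells with the receptor for comparison here. How the deficiency was made, how many mice gave marrow and what the isotype control protein was are not given in the sources used here, so the p-values below measure the spread between libraries, which may be technical.

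Cellular iron is set by import, storage and export. Transferrin-bound iron enters through the transferrin receptor, free metal ions enter through divalent metal transporters, ferritin shells of heavy and light chains hold the surplus, and ferroportin, the product of Slc40a1, is the known route out. Macrophages recycle the iron of old red cells, and in inflammation they are known to hold iron back from microbes. Several of these genes are also controlled after transcription: iron regulatory proteins bind hairpins called iron-responsive elements, which block translation when they lie in the 5′ UTR and protect the RNA when they lie in the 3′ UTR. Metallothioneins are small proteins that bind zinc and copper through their cysteines, and their transcription is known to respond to zinc, stress and glucocorticoids.

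The hairpins are shown because a search for an exact pattern found them in 4 of the 9 genes. RNA counts do not read the translational control that those in a 5′ UTR exert. A search of annotated UTRs (GENCODE M21, build GRCm38) for a C, 5 bases, the loop CAGTGN and 5 bases that pair with the first 5 found 1 such hairpin in the 5′ UTR of Slc40a1, Fth1 and Ftl1 and 4 in the 3′ UTR of Tfrc. Each lies within 1 exon, and the loop is in capitals.
Slc40a1, chr1:45925465-45925493, minus strand: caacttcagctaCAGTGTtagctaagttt
Fth1, chr19:9982732-9982760, plus strand: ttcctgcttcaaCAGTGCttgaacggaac
Ftl1, chr7:45459779-45459807, minus strand: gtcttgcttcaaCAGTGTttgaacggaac
Tfrc, chr16:32631219-32631247, plus strand: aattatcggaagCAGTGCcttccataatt
Tfrc, chr16:32631598-32631626, plus strand: cattatcgggagCAGTGTcttccataatg
Tfrc, chr16:32631663-32631691, plus strand: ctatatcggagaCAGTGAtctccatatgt
Tfrc, chr16:32631710-32631738, plus strand: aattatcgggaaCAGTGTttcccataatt
The pattern occurred in the 5′ UTR of 30 of 20899 genes (0.144%) and in the 3′ UTR of 128 of 21685 genes (0.59%). No hairpin of this exact pattern was found in the annotated UTRs of Slc11a2, Slc11a1, Slc39a14, Mt1 or Mt2, which says only that these letters are not there. Iron-responsive elements that depart from the pattern, for example by an extra base, would have been missed, so these 5 genes are not shown to lack such elements.

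Library totals ran from 5532225 to 66729533 estimated counts, and 3 counts, the limit that a count of 0 allows, corresponded to 0.045 to 0.542 CPM (a gene's counts relative to those of its whole library), counting error only. Levels below are CPM after TMM scaling, which sets library totals on a common scale, and differences are log2 fold changes ± standard error from edgeR's quasi-likelihood test with Benjamini-Hochberg adjustment over all 13468 genes. A gene is said to have risen or fallen where the adjusted p was under 0.05. Libraries differed in a GC tilt, the mean log2 level of genes with a transcript GC content above 57.8% minus that of genes below 41.3%, relative to each gene's mean over the libraries. It ran from -1.62 to 0.843. The library numbers in the titles run in order of group, except that isotype 4 h replicate 3 and FcMR 12 h replicate 1 stand in each other's place. Whether these 2 labels were exchanged was not tested, and both libraries are kept as labelled. In the tilt these libraries also stood apart from their groups, at 0.636 against -0.846 and -1.62 in the other isotype 4 h libraries, and at -0.749 against 0.737 and 0.826 in the other FcMR 12 h libraries. In Fth1 they lay within their groups as labelled, at 12910 CPM between 12400 and 13660, and at 18280 CPM between 17570 and 19250. Slc31a2 was 170 ± 11.9 CPM (SD, n = 3) in the isotype 4 h group and 361 ± 12.2 CPM in the FcMR 12 h group. In Ftl1, Mt1 and Mt2 both libraries lay nearer those of the other group. Values without these 2 libraries, and values with a correction that removes each library's smooth trend on GC content, are given where the call, the direction or the size changed. Mrc1, the gene of the mannose receptor, had at most 11 counts in any library, and its counts separated no group from the others.

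The macrophage markers summed to between 19800 and 38200 CPM in every library, dendritic cell markers to between 1390 and 1790 CPM, and B and T cell markers to at most 7.74 CPM. Granulocyte and precursor markers summed to 1570 to 1770 CPM in untreated cells and to 192 to 238 CPM at 24 h in both treated groups. Erythroid markers, of interest because red cell precursors express many iron genes, summed to 6.87 to 36.7 CPM in isotype 4 h cells and to at most 9.34 CPM in every other library. Fibroblast markers summed to 10.4 to 16.3 CPM in FcMR 12 h cells against 2.49 to 3.3 CPM in isotype 12 h cells, with Pdgfrb reaching 13.9 CPM and Col1a2 at most 0.288 CPM. In bulk RNA, fewer cells of a type and less RNA per cell cannot be told apart.

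**Figure D1:**
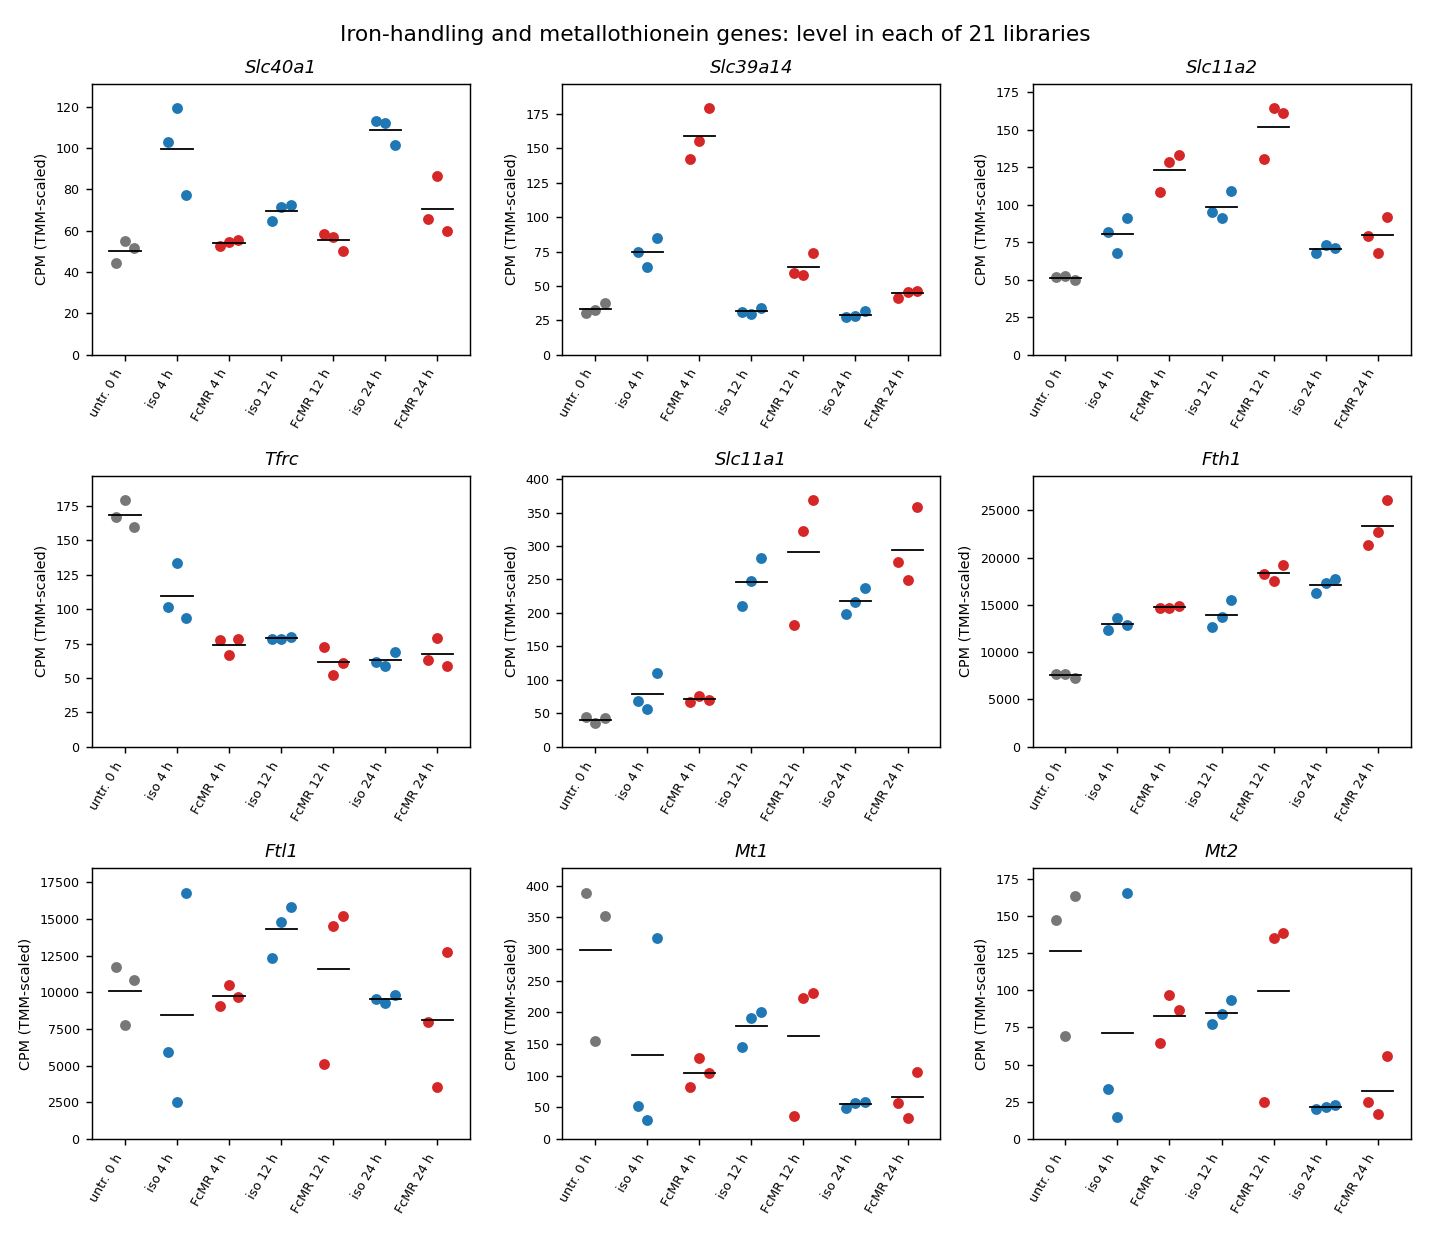
Level of each of the 9 genes in each of 21 libraries, in CPM after TMM scaling on a linear axis from 0 (grey, untreated; blue, isotype control; red, FcMR; black line, mean of 3 libraries). Slc40a1 points of FcMR cells lie below those of isotype cells at each time, Slc39a14 points lie above them, and the points of Ftl1, Mt1 and Mt2 spread widely within the isotype 4 h, FcMR 12 h and FcMR 24 h groups.

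With FcMR, the exporter Slc40a1 was lower than with the isotype control at 4 and 24 h, the importer Slc39a14 was higher at 4, 12 and 24 h, the importer Slc11a2 was higher at 4 and 12 h, and the ferritin heavy chain Fth1 was higher at 12 and 24 h. Tfrc was lower at 4 h. Of the 9 genes, 4 passed the test at 4 h (2 higher, 2 lower), where 17.7% of all genes tested did (8.62% higher, 9.13% lower). At 12 h 3 passed, all higher, against 16.1% of all genes (8.61% higher, 7.49% lower). At 24 h 3 passed (2 higher, 1 lower), against 20.9% of all genes (11.4% higher, 9.44% lower). The libraries of the FcMR and isotype groups did not overlap for 5, 5 and 4 of the 9 genes at 4, 12 and 24 h, against 29.7%, 35.4% and 34.4% of all genes. With the GC correction 4, 5 and 4 of the 9 passed, against 27.1%, 24.4% and 28.7% of all genes. The median log2 difference of the 9 genes was 0.18, 0.23 and 0.25 at 4, 12 and 24 h, beside -0.07, -0.02 and 0.01 over all genes. Against untreated cells the isotype groups differed in more of the genes: 6 of 9 at 4 h (35.6% of all genes), 5 of 9 at 12 h (41.6%) and 7 of 9 at 24 h (42.2%). Of these, 5, 4 and 4 were higher (20.4%, 22% and 21.3% of all genes) and 1, 1 and 3 lower (15.2%, 19.6% and 20.9%). Isotype and untreated libraries did not overlap for 6, 6 and 7 of the 9, against 42.4%, 61.8% and 62.7% of all genes, and with the GC correction 6, 5 and 7 passed, against 43.4%, 51.6% and 53.6%. The isotype libraries enter both kinds of comparison, so a high isotype value moves the differences in opposite directions.

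**Figure D2:**
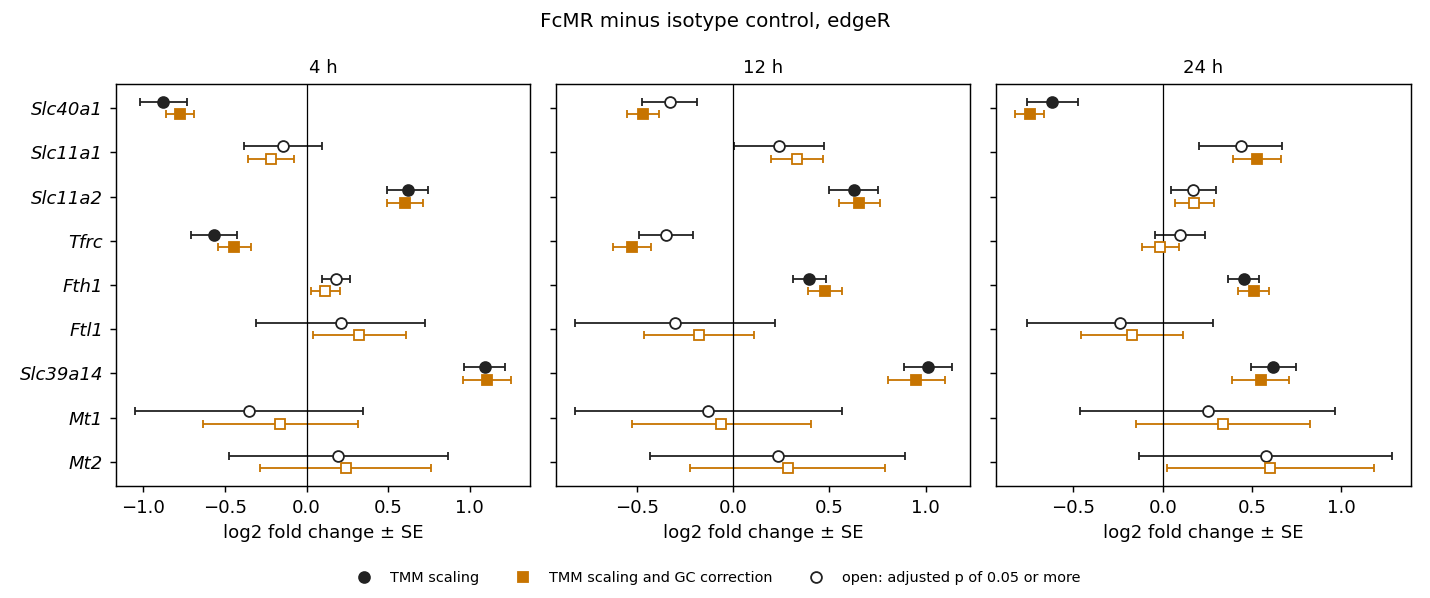
Log2 fold change of FcMR minus isotype control at 4, 12 and 24 h for the 9 genes, ± standard error from edgeR, with TMM scaling alone (black circles) and with the GC correction added (orange squares); open symbols have an adjusted p of 0.05 or more. Slc39a14 lies at 1.09, 1.01 and 0.62 on the log2 scale, Slc40a1 at -0.88, -0.33 and -0.62, and the error bars of Ftl1, Mt1 and Mt2 are the widest.

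Slc40a1 (ENSMUSG00000025993, chr1:45908068-45926523, minus strand) encodes ferroportin, the iron exporter of the cell surface, whose 5′ UTR hairpin is shown above. In untreated cells its level was 44.3, 55.0 and 51.5 CPM in the 3 libraries. At 4 h it was 103, 119 and 77.05 CPM with the isotype control and 52.6, 54.6 and 55.3 CPM with FcMR. Every isotype library was above every FcMR and every untreated library, while FcMR and untreated cells overlapped. The difference between FcMR and isotype was -0.88 ± 0.15 (adjusted p = 0.000341), and isotype minus untreated was 0.98 ± 0.15 (adjusted p = 3.51e-05). Without isotype 4 h replicate 3 and FcMR 12 h replicate 1, the 4 h difference between FcMR and isotype was -1.04 ± 0.13 (adjusted p = 3.74e-05) and isotype minus untreated was 1.14 ± 0.13 (adjusted p = 3.22e-06). With the GC correction on all libraries, isotype minus untreated was 0.64 ± 0.08 (adjusted p = 4.07e-06) and FcMR minus isotype was -0.775 ± 0.083 (adjusted p = 1.17e-06). Within 4 of 7 groups the order of the Slc40a1 levels was the reverse of the order of the tilt.

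At 12 h Slc40a1 was 64.5, 71.4 and 72.2 CPM with the isotype control and 58.4, 57.1 and 50.3 CPM with FcMR. The groups did not overlap, but the difference of -0.33 ± 0.14 did not pass (adjusted p = 0.143). With the GC correction it did, at -0.47 ± 0.08 (adjusted p = 0.000238). At 24 h the levels were 113, 112 and 101 CPM with the isotype control and 65.8, 86.3 and 59.98 CPM with FcMR. All 3 FcMR libraries were below all 3 isotype libraries, and Slc40a1 was lower by -0.62 ± 0.14 (adjusted p = 0.00397), or -0.75 ± 0.08 with the GC correction (adjusted p = 9.51e-07). In isotype cells Slc40a1 was higher than in untreated cells at 12 h (0.46 ± 0.14, adjusted p = 0.0148) and at 24 h (1.11 ± 0.14, adjusted p = 6.48e-06). The 12 h call was lost without untreated replicate 1 (0.38, adjusted p = 0.0686) or isotype 12 h replicate 3 (0.45, adjusted p = 0.0502). The erythroid marker sum was 6.87 to 36.7 CPM in isotype 4 h cells and 0.105 to 0.345 CPM in isotype 24 h cells, and its part in the Slc40a1 levels was not tested. Of the 8 erythroid markers the haemoglobin genes reached the most in any library (Hbb-bs 17, Hba-a2 11.4, Hba-a1 3.8 and Hbb-bt 2.89 CPM), and Alas2, Epor and Ermap stayed at or below 0.723 CPM.

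Slc39a14 (ENSMUSG00000022094, chr14:70303469-70351425, minus strand) encodes ZIP14, a transporter that imports zinc and also iron not bound to transferrin. It was 30.2, 32.8 and 37.4 CPM in untreated cells. At 4 h it reached 74.8, 63.9 and 84.7 CPM with the isotype control and 142, 156 and 179 CPM with FcMR. The 3 groups did not overlap: the isotype control was above untreated cells by 1.16 ± 0.13 (adjusted p = 1.01e-06), and FcMR was above the isotype control by a further 1.09 ± 0.12 (adjusted p = 8.61e-06).

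By 12 h the isotype level of Slc39a14 overlapped that of untreated cells again, at 31.1, 29.8 and 34.0 CPM. With FcMR the level was 59.6, 57.6 and 74.3 CPM. The FcMR libraries were again all above the isotype libraries, by 1.01 ± 0.12 (adjusted p = 1.36e-05). At 24 h the levels were 27.1, 28.4 and 31.5 CPM with the isotype control and 41.4, 45.7 and 46.3 CPM with FcMR. That difference was 0.62 ± 0.13 (adjusted p = 0.00151). Isotype minus untreated was -0.08 ± 0.12 at 12 h (adjusted p = 0.662) and -0.21 ± 0.13 at 24 h (adjusted p = 0.202), and neither passed. Without the 2 libraries out of order, FcMR minus isotype was 1.19 ± 0.13 at 4 h (adjusted p = 8.3e-06) and 1.06 ± 0.12 at 12 h (adjusted p = 1.17e-05).

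Slc11a2 (ENSMUSG00000023030, chr15:100387898-100425072, minus strand) encodes DMT1, which carries ferrous iron out of endosomes and across the cell surface. It was 51.4, 52.6 and 49.8 CPM in untreated cells. Its level at 4 h was 81.7, 67.6 and 90.9 CPM with the isotype control and 109, 128 and 133 CPM with FcMR. At 12 h it was 95.3, 90.8 and 109 CPM with the isotype control and 130, 164 and 161 CPM with FcMR. At both times the lowest FcMR library lay above the highest isotype library. The difference was 0.62 ± 0.13 at 4 h (adjusted p = 0.0021) and 0.63 ± 0.13 at 12 h (adjusted p = 0.0016). At 24 h the groups overlapped, with 67.8, 72.8 and 70.8 CPM for the isotype control and 78.8, 67.7 and 91.7 CPM for FcMR, and the difference of 0.17 ± 0.13 did not pass (adjusted p = 0.408).

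All isotype libraries of Slc11a2 were above all untreated libraries at each time. Slc11a2 rose by 0.65 ± 0.13 at 4 h, 0.94 ± 0.13 at 12 h and 0.46 ± 0.13 at 24 h (largest of the 3 adjusted p-values, 0.00725). By limma on the deposited normalized values the 24 h change was 0.33 and did not pass (adjusted p = 0.188). Without the 2 libraries out of order, FcMR minus isotype was 0.72 at both 4 and 12 h (adjusted p = 0.000612 and 0.000361). On the opposite strand the gene overlaps Gm5475, a protein-coding gene model, and counting without strand could not tell their reads apart. Whether the counting used strand is not given in the sources used here.

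Tfrc (ENSMUSG00000022797, chr16:32608920-32632794, plus strand) encodes the transferrin receptor and carries the 4 hairpins in its 3′ UTR. Its level was highest in untreated cells, at 167, 179 and 160 CPM. At 4 h it was 102, 134 and 93.3 CPM with the isotype control and 77.3, 66.4 and 78.6 CPM with FcMR. Its level at 12 h was 78.4, 78.3 and 79.6 CPM with the isotype control and 72.6, 52.4 and 60.6 CPM with FcMR. At 24 h both groups lay between 58.7 and 79.2 CPM. Tfrc fell against untreated cells in every isotype group, with differences of -0.62 ± 0.14, -1.098 ± 0.14 and -1.42 ± 0.14 at 4, 12 and 24 h (adjusted p = 0.00187, 5.21e-06 and 2.82e-07). After GC correction the differences were -1.014 ± 0.10, -0.99 ± 0.10 and -1.53 ± 0.10, so that the 4 h value was level with the 12 h value. Without the 2 libraries out of order the 4 h value was -0.51 ± 0.14 (adjusted p = 0.00518), and -1.11 ± 0.10 with the GC correction added (adjusted p = 1.17e-07).

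At 4 h Tfrc was lower with FcMR than with the isotype control, with no overlap and a difference of -0.57 ± 0.14 (adjusted p = 0.00865). The call was lost without isotype 4 h replicate 2, the highest isotype library (-0.36, adjusted p = 0.09), and without FcMR 4 h replicate 2, the lowest FcMR library (-0.49, adjusted p = 0.0704). It was also lost with no filter on low counts (-0.45, adjusted p = 0.0577) and in a fit of only the libraries compared (-0.57, adjusted p = 0.0837). At 12 h the groups did not overlap and the difference of -0.35 ± 0.14 did not pass (adjusted p = 0.107). It did with the GC correction (-0.53 ± 0.10, adjusted p = 0.000554) and without the 2 libraries out of order (-0.48 ± 0.14, adjusted p = 0.0216). At 24 h the difference was 0.10 ± 0.14 (adjusted p = 0.704), and -0.01 ± 0.10 with the GC correction. The transcript of Tfrc has a GC content of 39.8%, the lowest of the 9 genes, and within 3 of 7 groups the order of its levels was the reverse of the order of the tilt.

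Slc11a1 (ENSMUSG00000026177, chr1:74375195-74386062, plus strand) encodes NRAMP1, which pumps divalent metals out of the phagosome. Mice of the C57BL/6 background are known to carry an allele of it whose protein does not work, so the RNA level is not a level of transport. Slc11a1 was 44.0, 35.5 and 42.3 CPM in untreated cells. Its level at 4 h was 68.8, 57.2 and 110 CPM with the isotype control and 67.4, 75.5 and 70.4 CPM with FcMR. At 12 h it was 210, 248 and 282 CPM with the isotype control and 182, 322 and 368 CPM with FcMR. At 24 h it was 199, 217 and 238 CPM with the isotype control and 276, 249 and 359 CPM with FcMR. Every treated library was above every untreated one, and the 12 and 24 h libraries were all above the 4 h libraries.

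In isotype cells Slc11a1 rose by 0.96 ± 0.24 at 4 h (adjusted p = 0.00464; 0.67 and 0.0521 by limma on the deposited normalized values), 2.61 ± 0.25 at 12 h (adjusted p = 1.59e-07) and 2.43 ± 0.25 at 24 h (adjusted p = 3.78e-07). The 12 and 24 h changes, 6.09-fold and 5.37-fold, were the largest rises among the 9 genes in these isotype comparisons. The 4 h rise was 0.64 ± 0.16 without the 2 libraries out of order (adjusted p = 0.00337) and 1.22 ± 0.14 with the GC correction (adjusted p = 1.02e-06). FcMR minus isotype was -0.15 ± 0.24, 0.24 ± 0.23 and 0.44 ± 0.23 at 4, 12 and 24 h (adjusted p = 0.747, 0.606 and 0.22). At 24 h the FcMR libraries lay above the isotype libraries, and the difference passed with the GC correction (0.53 ± 0.13, adjusted p = 0.00514). At 12 h it passed without the 2 libraries out of order (0.48 ± 0.15, adjusted p = 0.0356). Within 5 of 7 groups the order of the Slc11a1 levels was the same as the order of the tilt. Granulocyte marker sums were lower at later times, going from 1570 to 1770 CPM in untreated cells to 192 to 233 CPM in isotype 24 h cells, and their part in these rises was not tested.

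**Figure D3:**
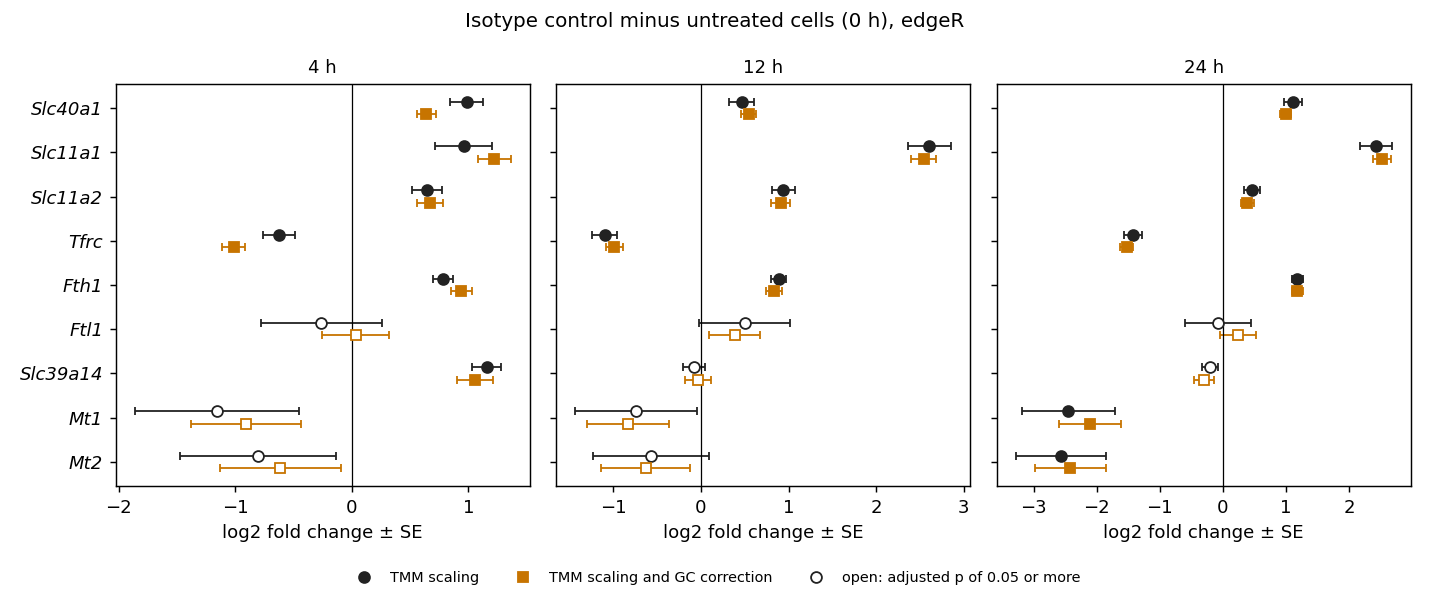
Log2 fold change of isotype control cells at 4, 12 and 24 h minus untreated cells for the 9 genes, ± standard error from edgeR, with TMM scaling alone (black circles) and with the GC correction added (orange squares); open symbols have an adjusted p of 0.05 or more. Slc11a1 lies at 2.61 and 2.43 at 12 and 24 h, Tfrc is below 0 at each time, and Mt1 and Mt2 lie at -2.45 and -2.57 at 24 h.

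Ferritin transcripts were among the most abundant RNAs of these cells. Fth1 (ENSMUSG00000024661, chr19:9980598-9985098, plus strand), the heavy chain that oxidises iron for storage, ranked between 1 and 7 among all genes by CPM in each library, and Ftl1 (ENSMUSG00000050708, chr7:45457944-45459884, minus strand), the light chain, between 2 and 36. Per kilobase of transcript in untreated cells, Ftl1 stood at 10440 ± 2144 CPM (SD, n = 3) and Fth1 at 5061 ± 159 CPM. The 7 other genes stood between 6.79 CPM per kilobase (Slc39a14) and 545 CPM per kilobase (Mt1) in the same cells. Processed copies of the ferritin genes held at most 0.433% of the counts of their parent gene, and adding them to it changed no call.

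Fth1 was lowest in untreated cells and highest at 24 h in both treated series. Its level was 7732, 7661 and 7289 CPM in untreated cells, then 12400, 13660 and 12910 CPM with the isotype control at 4 h, 12660, 13720 and 15520 CPM at 12 h and 16220, 17270 and 17730 CPM at 24 h. With FcMR it was 14700, 14710 and 14850 CPM at 4 h, 18280, 17570 and 19250 CPM at 12 h and 21330, 22670 and 26050 CPM at 24 h. At each time every FcMR library was above every isotype library, and every treated library was above every untreated one. The isotype libraries of 4 and 12 h overlapped, and the order of their means depended on the GC correction, with which they were 14090 and 13120 CPM. As a share of all estimated counts, Fth1 went from 0.793% in an untreated library to 2.69% in an FcMR 24 h library.

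In isotype cells Fth1 was 1.72-fold above untreated cells at 4 h, 1.85-fold at 12 h and 2.26-fold at 24 h, where the log2 difference was 1.18 ± 0.09 (adjusted p = 5.96e-09). FcMR minus isotype was 0.40 ± 0.09 at 12 h (adjusted p = 0.00315) and 0.45 ± 0.09 at 24 h (adjusted p = 0.000799). At 4 h it was 0.18 ± 0.09 and did not pass (adjusted p = 0.158). DESeq2 called that 4 h difference (0.25, adjusted p = 0.0221), while with the GC correction it was 0.12 ± 0.09 (adjusted p = 0.365) and the groups overlapped.

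Ftl1 was 11720, 7762 and 10830 CPM in untreated cells. The isotype 4 h libraries held 5949, 2514 and 16790 CPM, and the FcMR 4 h libraries 9027, 10480 and 9675 CPM. At 12 h the isotype libraries held 12300, 14790 and 15800 CPM, and the FcMR libraries 5076, 14480 and 15200 CPM. At 24 h the isotype libraries held 9549, 9267 and 9833 CPM, and the FcMR libraries 8003, 3533 and 12730 CPM. The spread was uneven: the SD was 88.5% of the mean in the isotype 4 h group and 2.96% in the isotype 24 h group. Ftl1 passed no comparison (FcMR minus isotype 0.21 ± 0.52, -0.30 ± 0.52 and -0.24 ± 0.52, with adjusted p of 0.801 or more). In a fit of only the libraries compared, isotype 12 h cells were above untreated cells by 0.49 ± 0.14 (adjusted p = 0.0163).

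The order of the Ftl1 levels within a group was the same as the order of the GC tilt in 5 of 7 groups, and its transcript GC content was 58.1%. The GC correction brought the SD from 88.5% to 52.4% of the mean in isotype 4 h cells and from 56.9% to 33% in FcMR 24 h cells, and still called no difference. Without the 2 libraries out of order, FcMR was above the isotype control at 4 h by 1.21 ± 0.39 (adjusted p = 0.0285), a value that compares 3 FcMR libraries with 2 isotype libraries. With the GC correction added it was 0.81 ± 0.22 (adjusted p = 0.00972). Without the 2 libraries isotype 4 h minus untreated was -1.26 ± 0.39 without the correction (adjusted p = 0.0132; -1.26 and 0.0384 without isotype 4 h replicate 3 alone) and -0.44 ± 0.21 with it (adjusted p = 0.106). Ftl1 also overlaps Gm10252 on the opposite strand and the miRNA gene Gm22133 on its own strand.

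**Figure D4:**
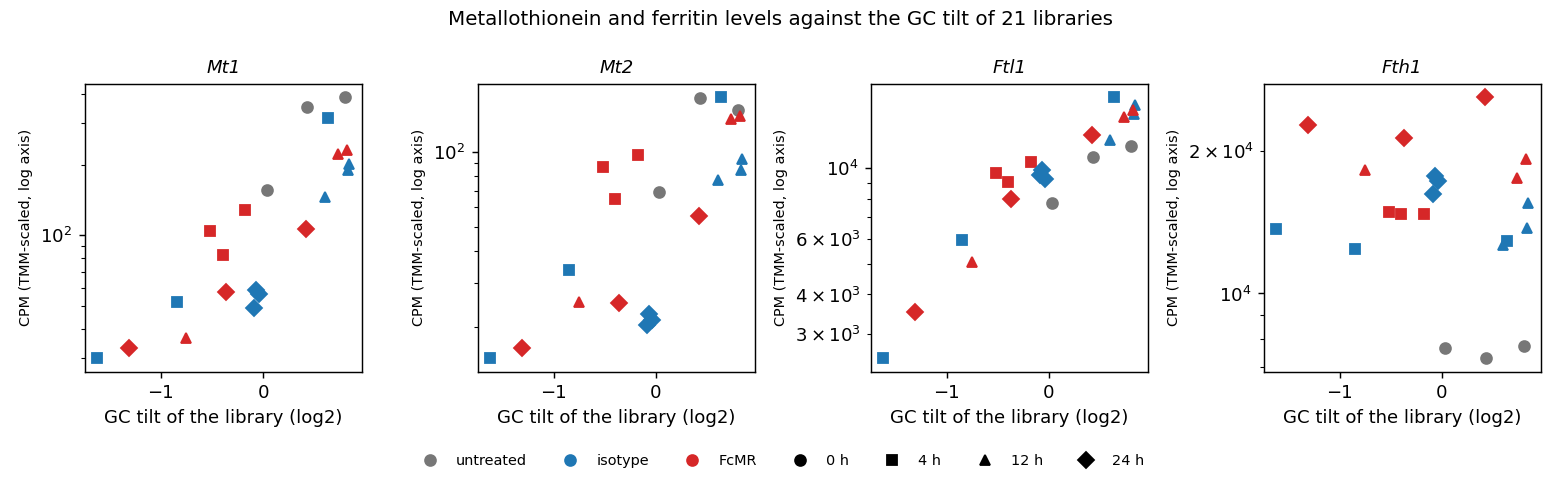
Level of Mt1, Mt2, Ftl1 and Fth1 in CPM after TMM scaling (log axis) against the GC tilt of the library (log2, 21 libraries; colour, treatment; shape, time). Points of Mt1, Mt2 and Ftl1 climb with the tilt within the isotype 4 h, FcMR 12 h and FcMR 24 h groups, while Fth1 points separate by time and treatment.

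Mt1 and Mt2 lie side by side on chromosome 8. Their promoters are shown because both genes moved together over the 21 libraries (Pearson r = 0.956 of log2 CPM, a description over libraries that share tilt and depth) and because metallothionein promoters are known for metal response elements, the sites of the zinc-sensing factor MTF1. The sequences are the 250 bases before the start annotated by RefSeq (GRCm38.p6, plus strand), and capitals mark the letters TGCACNC or TGCGCNC on either strand, the core of that element.
Mt2, chr8:94172368-94172617: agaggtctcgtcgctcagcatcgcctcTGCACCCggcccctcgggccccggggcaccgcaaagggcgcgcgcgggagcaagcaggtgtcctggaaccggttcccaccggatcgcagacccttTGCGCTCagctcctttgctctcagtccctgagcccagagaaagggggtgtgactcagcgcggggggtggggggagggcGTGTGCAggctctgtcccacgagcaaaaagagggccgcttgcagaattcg
Mt1, chr8:94178839-94179088: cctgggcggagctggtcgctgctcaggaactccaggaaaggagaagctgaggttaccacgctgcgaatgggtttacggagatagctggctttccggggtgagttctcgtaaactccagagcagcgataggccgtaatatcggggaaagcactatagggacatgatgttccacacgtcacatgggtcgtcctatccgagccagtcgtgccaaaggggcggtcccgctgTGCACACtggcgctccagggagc
The window of Mt2 held 3 such cores and that of Mt1 held 1. Of the other members with a promoter in the same source, Tfrc had 2 windows, of which 1 held 2 overlapping cores and the other 0. The windows of Slc11a1, Ftl1 and Fth1 held 0. At least 2 cores were found in 5.17% of windows. At least 1 was found in 21.4% of 32851 promoter windows of this length, and at least 3 in 1.26%. The window of Mt2 also held 1 match to TGACNNNGC, the core of the antioxidant response element, found on either strand in 10.2% of windows. Bases after the annotated starts were not searched, so the counts hold for these windows only.

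Mt1 (ENSMUSG00000031765, chr8:94179082-94180327, plus strand) was 389, 155.5 and 353 CPM in untreated cells. Its level at 4 h was 52.0, 29.9 and 317 CPM with the isotype control and 82.2, 128 and 104 CPM with FcMR. Its level at 12 h was 146, 190.3 and 201 CPM with the isotype control and 36.5, 223 and 231 CPM with FcMR. At 24 h it was 49.2, 56.4 and 58.3 CPM with the isotype control and 57.4, 33.3 and 106 CPM with FcMR. The FcMR and isotype groups overlapped at each time, and the highest isotype 4 h library and the lowest FcMR 12 h library were the pair with title numbers out of order.

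Mt2 (ENSMUSG00000031762, chr8:94172664-94173568, plus strand) spread in a similar way. It was 147, 69.1 and 163 CPM in untreated cells. At 4 h it was 33.9, 14.97 and 166 CPM with the isotype control and 64.7, 96.7 and 86.6 CPM with FcMR. At 12 h it was 77.3, 84.2 and 93.5 CPM with the isotype control and 25.1, 135 and 139 CPM with FcMR. At 24 h it was 20.3, 21.2 and 22.5 CPM with the isotype control and 25.0, 16.5 and 55.6 CPM with FcMR. The isotype 24 h libraries were thus both the lowest group by mean, at 21.4 ± 1.12 CPM (SD, n = 3), and the one with the smallest spread relative to its mean. Gm45774, an antisense gene model, overlaps Mt2.

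Both metallothioneins fell from untreated cells to isotype 24 h cells, with no overlap. Mt1 fell by 2.45 ± 0.74 on the log2 scale (adjusted p = 0.0122) and Mt2 fell by 2.57 ± 0.72 (adjusted p = 0.00785), that is 5.48-fold and 5.92-fold. They also fell with the GC correction, with differences of -2.11 ± 0.49 and -2.42 ± 0.57 (adjusted p = 0.00139 and 0.00145). At 4 and 12 h the isotype control minus untreated was -1.16 ± 0.70 and -0.74 ± 0.70 for Mt1 and -0.80 ± 0.67 and -0.57 ± 0.66 for Mt2, and none of these passed. In a fit of only the libraries compared, Mt1 at 12 h did (-0.75, adjusted p = 0.048).

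FcMR minus isotype for Mt1 was -0.35 ± 0.70, -0.13 ± 0.69 and 0.25 ± 0.71 at 4, 12 and 24 h, and for Mt2 0.19 ± 0.67, 0.23 ± 0.66 and 0.58 ± 0.71, with adjusted p of 0.649 or more. Without isotype 4 h replicate 3 and FcMR 12 h replicate 1, both genes were higher with FcMR at 4 h, Mt1 by 1.35 ± 0.43 (adjusted p = 0.0275) and Mt2 by 1.75 ± 0.45 (adjusted p = 0.00952). These values compare 3 FcMR libraries with 2 isotype libraries, and the library left out was the highest isotype 4 h library of both genes. The isotype libraries kept had tilts of -0.846 and -1.62. The order of levels within a group was that of the tilt in 5 of 7 groups for Mt1 and 4 of 7 for Mt2. With the GC correction added the values were 0.91 ± 0.28 (adjusted p = 0.0213) and 1.46 ± 0.35 (adjusted p = 0.00474). Isotype 4 h minus untreated was -2.85 ± 0.45 for Mt1 (adjusted p = 7.92e-05) and -2.35 ± 0.46 for Mt2 (adjusted p = 0.000548) without the 2 libraries. With the correction added too it was -1.97 ± 0.28 for Mt1 (adjusted p = 2.05e-05) and -1.82 ± 0.35 for Mt2 (adjusted p = 0.000418). Leaving out isotype 4 h replicate 3 alone also turned the direction of Mt1 at 4 h, to 1.36, but that value did not pass (adjusted p = 0.122).

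A joint test asked whether the difference between FcMR and isotype changed over 4, 12 and 24 h. None of the 9 genes passed it in edgeR (11% of all genes did), nor in DESeq2. At an unadjusted p under 0.05 there were 4, namely Tfrc (adjusted p = 0.0804), Slc11a2 (0.149), Slc39a14 (0.162) and Slc40a1 (0.193). With the GC correction 3 passed, against 20.4% of all genes: Slc11a1 (adjusted p = 0.0218), Tfrc (0.0282) and Fth1 (0.0467). In that fit the FcMR effect on Slc11a1 was 0.75 higher at 24 h than at 4 h on the log2 scale, that on Tfrc 0.43 higher and that on Fth1 0.39 higher. The FcMR effect on Slc39a14 at 24 h minus that at 4 h was -0.47 in the fit without correction, where it did not pass. With the GC correction and without the 2 libraries out of order 7 of the 9 genes passed, all but Mt1 and Mt2. In that fit 3285 of the 13767 genes tested passed, and Slc39a14 had an adjusted p of 0.0127. Whether these effects changed over time thus depended on the processing.

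Across the 7 groups each gene had its own order of levels. Slc40a1 was high in isotype 24 h and isotype 4 h cells, which overlapped, and low in untreated, FcMR 4 h and FcMR 12 h cells, which overlapped too. Slc39a14 was highest in FcMR 4 h cells, with isotype 4 h and FcMR 12 h cells next and overlapping, and lowest in the untreated, isotype 12 h and isotype 24 h groups. Slc11a2 was highest in FcMR 12 h and FcMR 4 h cells, which overlapped, and lowest in untreated cells, below every other library. Fth1 ran from untreated cells at the bottom to FcMR 24 h cells at the top, with isotype 4 h and isotype 12 h cells overlapping. Tfrc was highest in untreated cells, followed by isotype 4 h cells, and the FcMR 12 h, isotype 24 h and FcMR 24 h groups, which overlapped, were the lowest by mean. Over the 21 libraries Tfrc and Fth1 had a Pearson r of -0.864 and Tfrc and Slc11a1 one of -0.828, given as descriptions, since the libraries fall into groups and share their scaling.

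Other genes of iron and haem handling, a list of 48 with 37 tested, gave calls in both directions. FcMR was higher than the isotype control for 4, 5 and 6 of them at 4, 12 and 24 h and lower for 4, 5 and 6, with median differences of -0.13, -0.05 and -0.06. Over all genes the shares were 8.62%, 8.61% and 11.4% higher and 9.13%, 7.49% and 9.44% lower. After GC correction 6, 7 and 8 of the list were higher and 7, 6 and 10 lower, where 27.1%, 24.4% and 28.7% of all genes were called in either direction. Lcn2, which encodes lipocalin 2, a protein that binds bacterial iron carriers, was higher with FcMR at each time, at 251 ± 2.33 CPM (SD, n = 3) against 98.9 ± 33.6 CPM at 4 h, 404 ± 92.6 against 111 ± 7.73 CPM at 12 h and 382 ± 85.6 against 73.0 ± 8.02 CPM at 24 h. Its log2 differences were 1.34 ± 0.21, 1.87 ± 0.21 and 2.39 ± 0.22 (adjusted p = 0.000223, 5.71e-06 and 2.66e-07). Spic, a transcription factor known for iron-recycling macrophages, was higher at 12 h (1.65 ± 0.17, adjusted p = 1.57e-06) and 24 h (1.91 ± 0.17, adjusted p = 2.59e-07). Cp, the copper oxidase ceruloplasmin that loads exported iron onto transferrin, was 12.6 ± 3.71 CPM against 2.16 ± 0.461 CPM at 12 h and 6.62 ± 2.23 CPM against 1.24 ± 0.516 CPM at 24 h, with log2 differences of 2.59 ± 0.36 and 2.41 ± 0.40 (adjusted p = 5.67e-05 and 0.000232).

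Flvcr1, a haem exporter, was lower with FcMR at 4 h, at 26.2 ± 1.43 CPM against 53.0 ± 5.78 CPM (log2 difference -1.01 ± 0.11, adjusted p = 6.57e-06). Steap3, the endosomal ferrireductase that works beside Slc11a2, had a lower mean level with FcMR at each time. At 12 h it was 8.41 ± 2.32 CPM (SD, n = 3) against 23 ± 1.37 CPM, and at 24 h 8.94 ± 1.64 CPM against 22.1 ± 0.613 CPM. Its 4 h difference was -0.68 ± 0.23 (adjusted p = 0.0469), a call lost without the 2 libraries out of order (-0.33, adjusted p = 0.137). In that setting 6 genes of the list were higher and 4 lower at 4 h, and 5 of the 8 calls of the full set remained. Of all 13797 genes tested there, 2093 were higher and 1805 lower. Macrophage marker sums were lower with FcMR than with the isotype control, at 24300 to 25200 CPM against 26500 to 32200 CPM at 4 h and at 26700 to 29000 CPM against 33900 to 38200 CPM at 24 h, and their part in these values was not tested. Most of each sum was Lyz2, with a median of 22400 CPM over the libraries, while Csf1r, the next highest, had 975 CPM. The sums thus say little about the other macrophage markers.

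Against untreated cells the isotype groups were higher for 12, 18 and 15 of the 37 iron and haem genes at 4, 12 and 24 h and lower for 6 at each time, where 20.4%, 22% and 21.3% of all genes were higher and 15.2%, 19.6% and 20.9% lower. The GC correction gave 14, 20 and 21 higher and 8, 6 and 8 lower, where 43.4%, 51.6% and 53.6% of all genes were called in either direction. Leaving out the 2 libraries gave 11 higher and 10 lower at 4 h, of 38 tested, where 3209 of all 13797 genes were higher and 3503 lower. The medians were 0.06, 0.30 and 0.36, beside 0, 0.03 and -0.04 over all genes. Alas1, the first enzyme of haem synthesis outside red cells, rose from 377 ± 44.2 CPM to 1750 ± 164 CPM at 12 h (2.21 ± 0.21, adjusted p = 1.79e-07) and was at 1470 ± 133 CPM at 24 h. Slc48a1, which carries haem out of the phagolysosome, rose by 1.58 ± 0.14 at 24 h (adjusted p = 4.83e-08), and Hmox2, a haem oxygenase, by 1.37 ± 0.07 (adjusted p = 3.02e-11). Blvrb, a biliverdin reductase, rose by 2.01 ± 0.57 at 12 h (adjusted p = 0.00835). At 4 h Slc25a37, the mitochondrial iron importer mitoferrin 1, rose by 1.31 ± 0.09 (adjusted p = 5.45e-09), Spic by 1.43 ± 0.18 (adjusted p = 6.18e-06) and Cp, at 1.61 ± 0.798 CPM, by 1.42 ± 0.49 (adjusted p = 0.0328). Cp was also higher at 12 h (1.83 ± 0.44, adjusted p = 0.00262).

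Of 33 zinc, copper and metal response genes, 25 were tested. FcMR was higher for 2, 3 and 4 of them and lower for 2 at each time, with medians of 0.02, -0.02 and -0.06 and the shares over all genes given above. After GC correction 3, 2 and 4 were higher and 4 lower at each time, and without the 2 libraries 5 were higher and 4 lower at 4 h. More of all genes were called in these settings too, as given for the iron list. Slc39a10, a zinc importer of the same family as Slc39a14, was lower with FcMR at each time, at 15.9 ± 0.651 against 25.7 ± 3.09 CPM at 4 h, 18.5 ± 2.65 against 29.2 ± 1.75 CPM at 12 h and 23.4 ± 4.49 against 40.2 ± 3.55 CPM at 24 h. Its log2 differences were -0.69 ± 0.15, -0.65 ± 0.15 and -0.77 ± 0.15 (adjusted p = 0.00364, 0.00376 and 0.000755), opposite in sign to those of Slc39a14. Slc31a2, a copper transporter of internal membranes, was higher at 12 h (1.04 ± 0.08, adjusted p = 8.1e-08) and 24 h (0.91 ± 0.08, adjusted p = 2.32e-07), and Slc31a1, the copper importer CTR1, by 0.66 ± 0.11 (adjusted p = 0.000258) and 0.61 ± 0.11 (adjusted p = 0.00048). At 4 h the zinc exporter Slc30a1, a known target of MTF1 beside the metallothioneins, was lower by -0.54 ± 0.11 (adjusted p = 0.00206), and Slc30a6 was higher by 0.53 ± 0.10 (adjusted p = 0.000768).

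In isotype cells 7, 9 and 5 of the 25 genes were above untreated cells at 4, 12 and 24 h and 1, 4 and 4 below, beside the shares of all genes given for the iron list. The GC correction gave 7, 10 and 5 above and 2, 5 and 8 below, and leaving out the 2 libraries gave 9 above and 6 below at 4 h. The calls over all genes in these settings, given for the iron list, were also more. Slc39a2, another zinc importer, fell from 42.8 ± 5.38 CPM in untreated cells to 21.9 ± 2.54, 13.5 ± 0.618 and 8.38 ± 1.40 CPM, by 0.96 ± 0.14, 1.66 ± 0.14 and 2.35 ± 0.15 on the log2 scale (adjusted p = 2.49e-05, 2.68e-08 and 6.88e-10). Slc39a13 fell by 1.22 ± 0.30 at 24 h (adjusted p = 0.00308). Slc39a4, a zinc importer best known from the gut, rose by 1.62 ± 0.33 at 12 h (adjusted p = 0.000712) and 1.03 ± 0.34 at 24 h (adjusted p = 0.0203). Slc31a2 rose by 0.998 ± 0.08 at 12 h (adjusted p = 2.18e-08). At 4 h Slc30a4 rose by 1.08 ± 0.17 (adjusted p = 6.46e-05) and the copper pump Atp7a rose by 0.996 ± 0.15 (adjusted p = 5.37e-05). Slc30a4 at 4 h was at 0.69 (adjusted p = 9.34e-07) and Slc39a13 at 24 h at -0.80 (adjusted p = 2.69e-06) with the GC correction.

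**Figure D5:**
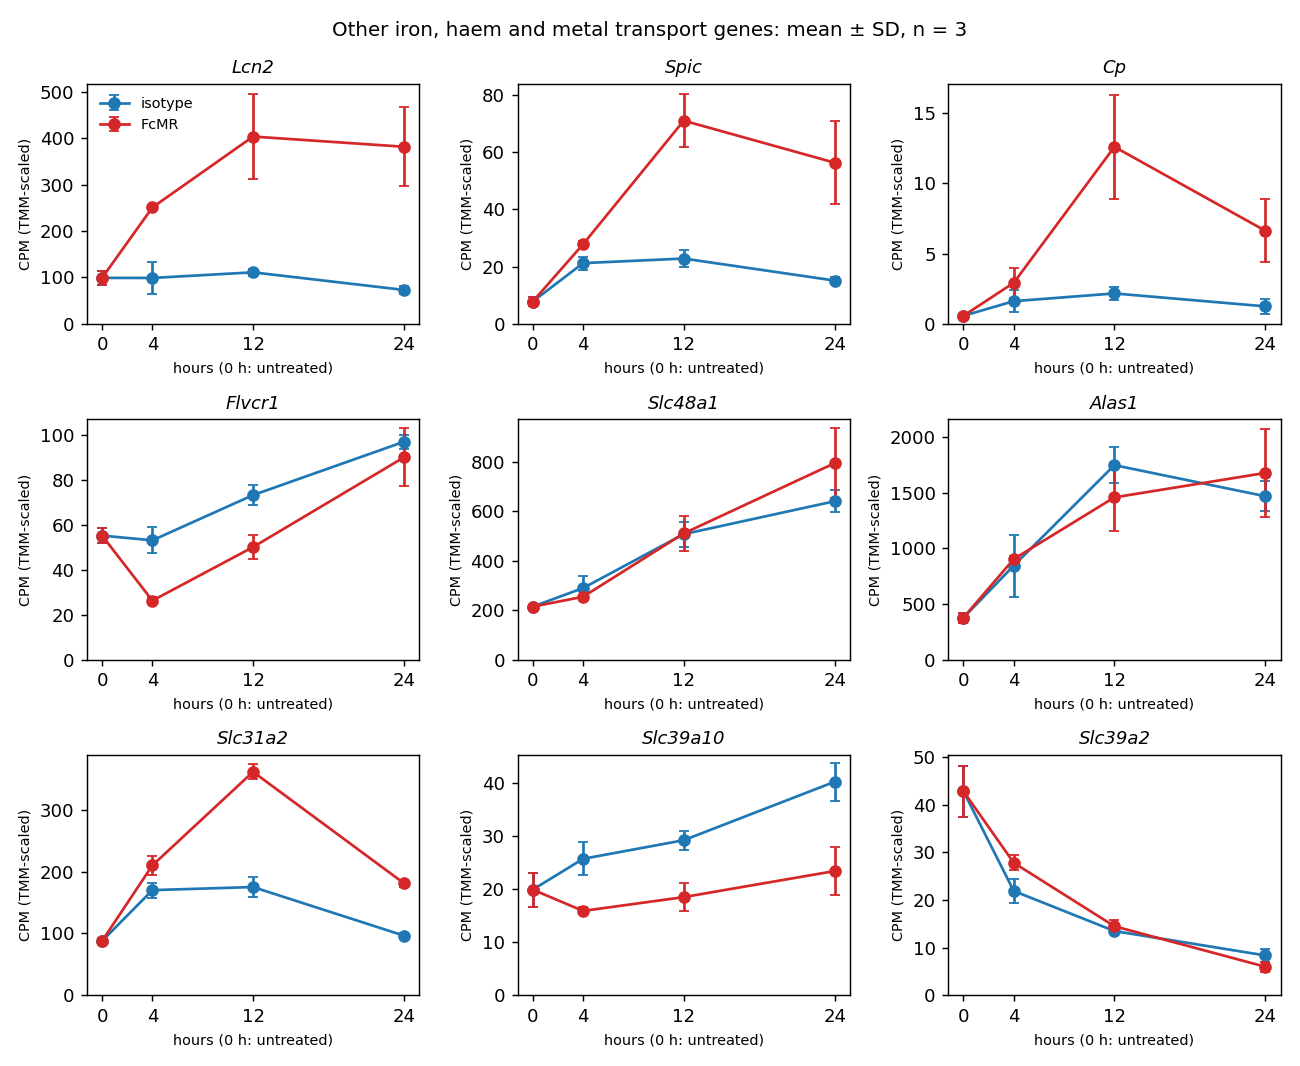
Mean level ± SD (n = 3) in CPM after TMM scaling of 9 genes from the iron, haem and metal lists, chosen for display after their values were seen, against hours of treatment (blue, isotype control; red, FcMR; 0 h is the untreated group for both lines). Lcn2, Spic, Cp and Slc31a2 lie higher with FcMR at 12 and 24 h, Slc39a10 lies lower with FcMR at each time, and Slc39a2 lies lower at each later time in both.

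The genes most like each member over the 21 libraries, among 8802 genes whose mean log2 CPM was 3 or more, are given by Pearson r of log2 CPM, as a description. Slc40a1 was most like Map4k3 (0.886) and Tusc3 (0.873), the lowest values among the 9 genes. Slc39a14 was most like Fst (0.982) and Plagl2 (0.98), Slc11a2 like Tnfrsf1b (0.96) and Isg20 (0.957), and Slc11a1 like Slc25a11 (0.98) and Pdlim4 (0.973). Fth1 was most like B2m (0.965) and Saa3 (0.962), and Tfrc like Luc7l2 (0.954) and Kmt5b (0.942). Ftl1 was most like Oaz1 and Stub1 (0.978 each), Mt1 like Srsf4 (0.979) and Eif4h (0.977), and Mt2 was like Tjap1 (0.962). The 5 genes named beside Ftl1, Mt1 and Mt2 have transcript GC contents of 54.5% to 60.8%, and these likenesses are over libraries that differ in GC tilt.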

How the data were processed

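RNA of 21 libraries was made with TruSeq RNA v2 kits from 100 ng and read as 75 bp single ends, per the labels' protocols. CASAVA 1.8.2, kallisto 0.44.0 and DESeq2, and the builds mm10 and GRCm38, are named in the submitters' processing notes, without roles; annotation release and strand setting are not given in the sources used here. The authors deposited a raw table of estimated counts per gene, whole numbers for 23250 genes, and a table of normalized signal. The estimated counts were used as they stand; the deposited normalized signal served for 1 alternative only, as log2(value + 1).

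Gene IDs were matched without version to symbols (23187 matched) and to GENCODE M21 for positions, transcript GC content (13440 of the genes tested) and length. Promoters came from RefSeq's table, in which Slc40a1, Slc11a2 and Slc39a14 were not matched. Genes were kept by filterByExpr (minimum count 10) and fitted with edgeR 4.0.16 (R 4.3.3; limma 3.58.1, DESeq2 1.42.0 for alternatives) in 1 quasi-likelihood model with a coefficient per group, tested on simulated data first. Library totals were 5532225 to 66729533. Replicate libraries correlated at 0.92 to 0.987 on log2 CPM, and a chi-square of their counts was at least 2.98 times its degrees of freedom, above sampling noise, so each was counted.

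The members, lists, markers and alternatives were chosen with earlier results of these data known. Beside the members and Mrc1, the text names per list and comparison the 3 called genes with the largest absolute fold change and a mean log2 CPM of 1 or more, and per member the 2 most similar genes, of which 1 for Mt2 is not reported here. The GC and length correction, the GC correction without 2 libraries and the recounts of the lists were added after seeing the data.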

Additional observations from a re-analysis of the deposited data

How the results depend on the processing

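Of the alternatives run, RLE factors changed no call and no direction of the 9 genes, and moved the median of all genes by at most 0.07 on the log2 scale. With RLE factors the genes called at 4 h between FcMR and isotype split into 1412 higher and 839 lower, against 1161 and 1229 with TMM. Between FcMR and isotype, the calls of Slc39a14 at 4, 12 and 24 h, of Slc40a1 at 4 and 24 h, of Slc11a2 at 4 and 12 h and of Fth1 at 12 and 24 h held in each alternative run, while that of Tfrc at 4 h did not. The genes called between FcMR and isotype at 4 h numbered 2390, against 3638 with the GC correction, 3610 with GC and length correction, 868 with only the libraries compared, 3898 without isotype 4 h replicate 3 and FcMR 12 h replicate 1, and 3986 with the GC correction and without these 2 libraries. At 12 h they numbered 2169, against 3279 with the GC correction. Isotype against untreated at 4 h gave 4792, against 2881 with only the libraries compared. The joint test called 1484 genes, against 2740 with the GC correction, 2691 with GC and length correction, 925 with no filter, 2616 without the 2 libraries and 3285 with both changes. Of the 9 genes, 7 were called at 4 h without the 2 libraries, where 3898 of 13797 genes tested were. With the GC correction added 7 were called too, where 3986 of 13767 genes tested were. At 12 h 5 of the 9 were called with the GC correction and without the 2 libraries, and 6 with both changes. Of all genes tested, 3279 of 13440 were called at 12 h with the GC correction, 2122 of 13797 without the 2 libraries and 3186 of 13767 with both changes. In the joint test 3 of the 9 were called with the GC correction, 2 with GC and length correction, 3 without the 2 libraries and 7 with both changes.

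Directions that turned belonged to values that did not pass in the full set. FcMR minus isotype for Mt1 at 4 h was 0.46 by limma on the deposited normalized values, 1.35 without the 2 libraries and 0.91 with the GC correction too; at 12 h it was 0.34 and 0.33 in the last 2 settings. Mt2 at 12 h was -0.059 by limma. Ftl1 at 12 h was 0.053 without the 2 libraries and 0.041 with the GC correction too. Slc11a1 at 4 h was 0.18 without the 2 libraries, and Tfrc at 24 h was -0.013 with the GC correction. Isotype minus untreated for Ftl1 was 0.034 at 4 h and 0.23 at 24 h with the GC correction, and 0.043 and 0.30 with GC and length correction. The cause was not tested.

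Same-numbered libraries did not deviate together (mean correlation per comparison -0.07 to 0.11), so the numbers were not taken to pair them. With the replicate block the joint test called 1 of the 9 genes (Slc39a14, adjusted p = 0.0237 by edgeR), Mt1 at 4 h was 0.03, and no other call of the 9 genes changed. With the replicate block and the GC correction 3786 of 13440 genes tested were called at 4 h, 3432 at 12 h and 2917 in the joint test. Of the 9 genes, 6 were called at 12 h and 5 in the joint test in that fit. Mt1 at 4 h was 0.021, Tfrc at 24 h -0.014 and Ftl1 at 24 h, isotype minus untreated, 0.24. That fit also called Slc39a14 (-0.30, adjusted p = 0.012 by edgeR) at 24 h and Mt1 (-1.09, adjusted p = 0.0431) at 4 h between isotype and untreated, and Slc39a14 in the joint test (adjusted p = 0.00873).

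Leaving out 1 library at a time, the genes called at 4 h ran from 1589 to 3151 and in the joint test from 973 to 2294, with 0 to 2 of the 9 genes. FcMR minus isotype ran from -0.18 to 1.21 for Ftl1, -0.77 to 1.36 for Mt1, -0.23 to 1.75 for Mt2 and -0.29 to 0.18 for Slc11a1 at 4 h. At 12 h it ran from -0.55 to 0.052 for Ftl1, -0.47 to 0.34 for Mt1 and -0.091 to 0.69 for Mt2. At 24 h it ran from -0.72 to 0.12 for Ftl1, -0.27 to 0.58 for Mt1, -0.052 to 0.91 for Mt2 and -0.036 to 0.19 for Tfrc. Isotype minus untreated ran from -1.26 to 0.13 for Ftl1 at 4 h, -0.24 to 0.04 for Ftl1 at 24 h and -0.14 to 0.009 for Slc39a14 at 12 h.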
